A study of Glycine max with 5 samples.

Results

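Basic leucine zipper (bZIP) genes of soybean encode transcription factors, and 67 of them could be followed on an Affymetrix soybean array among 6031 genes that had a probe set of their own. The members were all genes whose symbol or RefSeq synonym starts with BZIP once a leading Gm is removed, and 9 of the 67 were found through a synonym alone. Each gene was represented by 1 probe set, the one with the highest mean log2 signal over the 5 arrays. A further 6 bZIP probe sets were assigned to several genes and were left out.

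RNA came from 10-day-old seedlings of the soybean genotype Bragg, grown at 28 °C in potting mix without fertilizer and under natural long days, with no treatment contrast and no transgene. The root meristem group held 3 arrays of root tips cut at 0.5 mm under a microscope. The non-meristematic group held 2 arrays of the remaining tissue, which 1 label field calls leaf, so its exact makeup was not settled by the labels. Each sample's description field mentions embryos, against its other fields, so the titles set the groups. Samples are titled as biological replicates, but nothing states how many plants stood behind each, and a p-value reflects only how these 5 arrays vary.

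A bZIP protein pairs with a partner through a zipper of leucines and grips DNA with the basic stretch beside it, usually at sites with an ACGT core. Plant bZIP factors carry signals of light (HY5 and its soybean relatives STF1 and STF2), of abscisic acid (the AREB and ABF factors), of salicylic acid (the TGA factors, which work with NPR1) and of misfolded protein in the endoplasmic reticulum. The G-box binding factors, or GBFs, are a further group. The numbers in soybean names such as BZIP28 are a soybean series and do not mark the Arabidopsis gene of the same number.

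Values are MAS5 signals, a linear brightness per probe set, and an array's background was its 25th percentile, 17.9 to 22.5 in root meristem and 37 and 26.3 on non-meristematic arrays 1 and 2. The 2% trimmed mean signal was 268 to 277 on all 5 arrays. Over the 30941 probe sets tested, Spearman correlations were 0.965 to 0.976 between root meristem arrays and 0.871 between the non-meristematic arrays. Of 6 listed leaf and chloroplast genes 5 were lower in root meristem, with a summed signal of 317.9 to 349.3 there against 24306 and 21944. The exception was PSAD, a photosystem I subunit gene, with 4661.5, 4686.6 and 4996.1 in root meristem against 2833.1 and 3178.3 (log2 0.67, limma adjusted p = 0.00759, under the minimum size). Over all 6 genes the sums were 5011 to 5314 against 25123 to 27139. Both dividing-cell markers, H4 and PCNA, were higher in root meristem, and the root-tip auxin carrier gene PIN2A was at least 64.9-fold higher there, with both non-meristematic arrays below background. Of 2 seed storage markers, GY1 and KTI3, neither lay above background often enough to be tested. In whole tissue, fewer cells of a type and less RNA per cell cannot be told apart.

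Of the 67 bZIP genes, 62 lay above background on at least 2 arrays and were tested with limma, and 22 differed at an adjusted p below 0.05 with a log2 difference of at least 1. Root meristem was higher for 13 and lower for 9, while 40 did not pass. The share of 35.5% stood beside a background of 39.7% over the 5650 genes tested in the same fit. By direction, 21% of the bZIP genes were higher against 18.6% of all genes, and 14.5% were lower against 21%. These shares lay near the background and are no result about the family. Over all probe sets 32.5% passed, 14.4% upward and 18.1% downward. Rescaling moved that balance: upward calls were 44.3% of all probe sets called, 54.8% after quantile normalization and 62.1% after median centring. The bZIP genes then split 14 higher and 8 lower, and 14 higher and 7 lower.

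**Figure D1:**
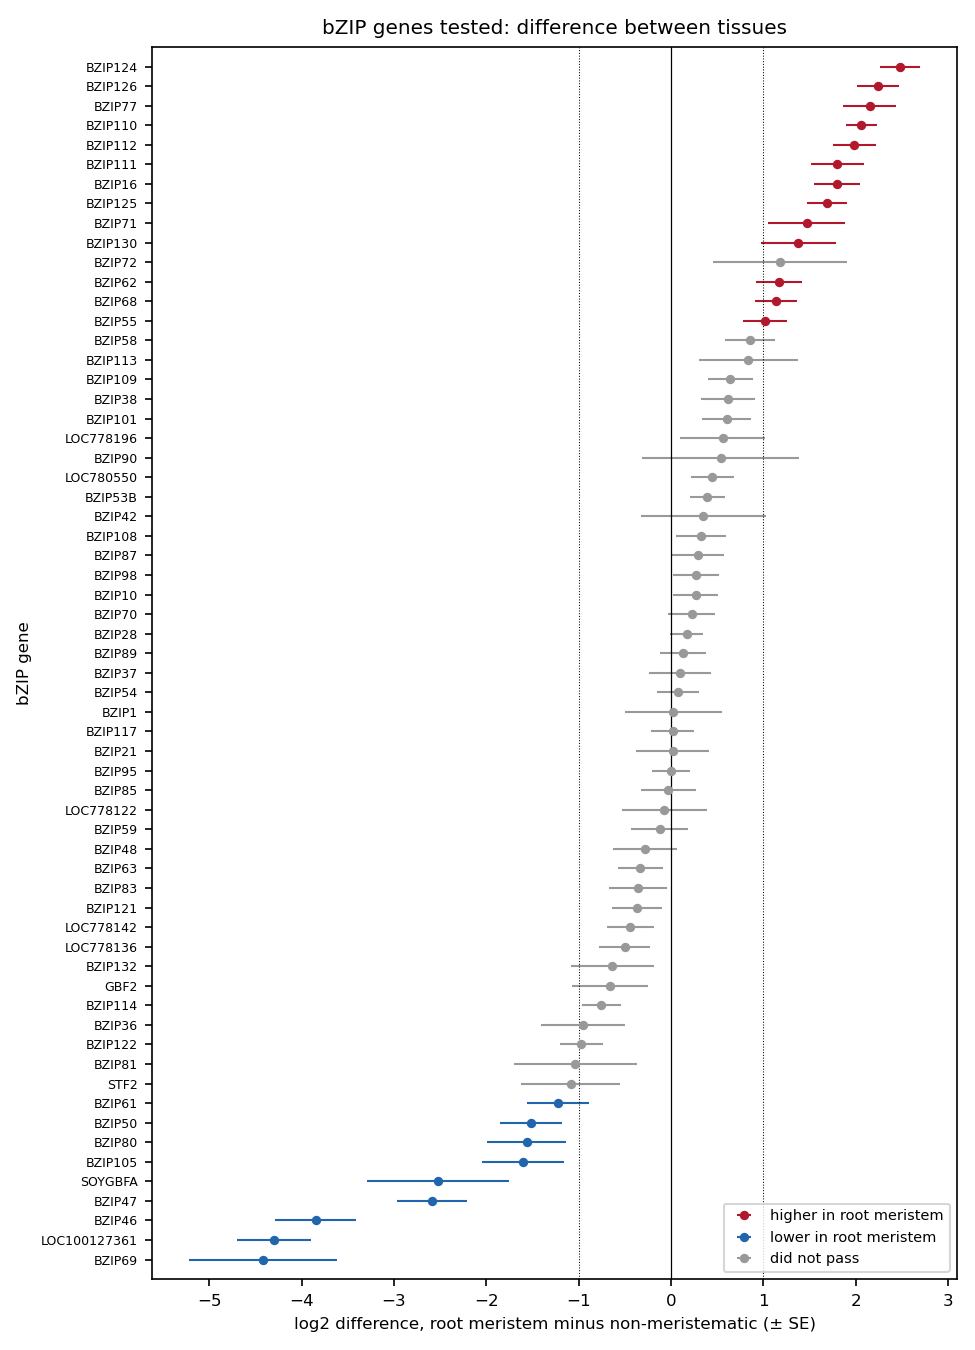
Log2 difference between root meristem and non-meristematic tissue (horizontal axis) for the 62 bZIP genes tested (vertical axis), with bars of 1 SE from limma and dotted lines at a log2 difference of 1 either way. The 13 genes that passed upward reach 2.48 and the 9 that passed downward include LOC100127361 at -4.30. The points of BZIP46, BZIP47 and BZIP69 are fitted values against signals below background, where only a bound holds.

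Leaving aside genes that lay below background on every array of a tissue, for which only a bound holds, the differences ran from -4.30 to 2.48 on the log2 scale. The median over the 62 genes was 0.11 beside 0.20 over all genes tested, and it was also 0.11 with such genes at their bound. Their median size without sign was 0.65 beside 0.89 over all genes. The groups of arrays did not overlap for 36 of the 62 bZIP genes, 58.1%, against 70.4% of all genes. Root meristem lay on top for 20, or 32.3% against 40.8% of all genes, and below for 16, or 25.8% against 29.6%. The order of the medians depended on scaling, with 0.32 for the bZIP genes and 0.26 for all genes after quantile normalization, and 0.47 and 0.56 after median centring.

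**Figure D2:**
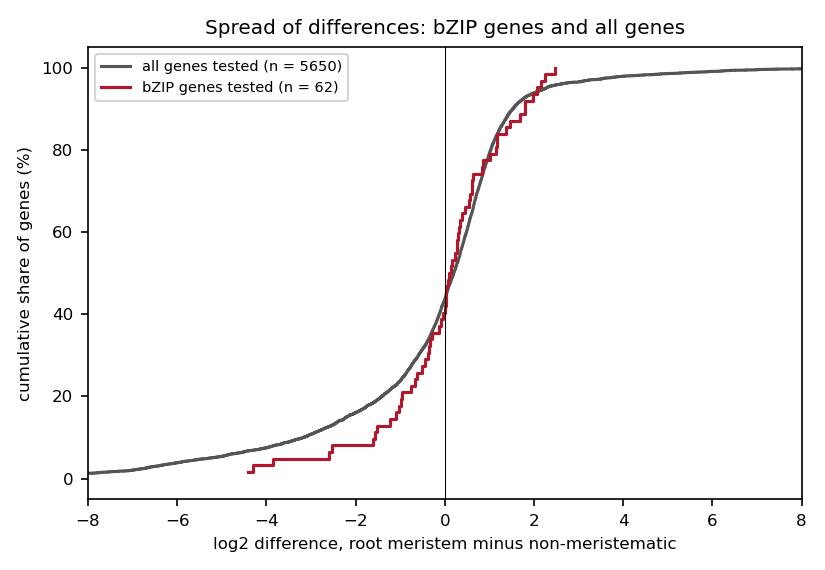
Cumulative share of genes (vertical axis, percent) by log2 difference between root meristem and non-meristematic tissue (horizontal axis, shown from -8 to 8), for 62 bZIP genes and for 5650 genes tested. The medians are 0.11 for the bZIP genes and 0.20 for all genes, and the far lower steps of the bZIP curve include 3 genes below background in root meristem, whose fitted values are no measured size.

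BZIP124, BZIP125 and BZIP126 were all higher in root meristem. BZIP124 had signals of 1520.9, 1605.2 and 1564.7 in root meristem against 229.4 and 342.6. Every root meristem array lay far above both others, and the means of 1564 ± 42.2 (SD, n = 3) and 286 ± 80.0 (n = 2) gave a 5.58-fold difference (log2 2.48 ± 0.22 SE, limma adjusted p = 0.000397), the largest upward one in the family. BZIP126 had 531.9, 482.1 and 561.8 against 126.8 and 96.8, a 4.73-fold difference (log2 2.24 ± 0.23, limma adjusted p = 0.00068). BZIP125 had 644.7, 716.8 and 660.2 against 239.1 and 181.4, or 3.23-fold (log2 1.69 ± 0.21, limma adjusted p = 0.00158). The 3 root meristem arrays of each gene stayed within a narrow band, and no group overlapped. BZIP125 did not pass when the difference was tested against a log2 size of 1 instead of 0 (adjusted p = 0.0573).

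BZIP110 and BZIP111 were also higher in root meristem. BZIP110, known from soybean work on salt tolerance, had signals of 2178.7, 2317.5 and 2316.4 there against 594 and 498.9. With means of 2271 ± 79.8 (SD, n = 3) and 546 ± 67.2 (n = 2) the difference was 4.17-fold (log2 2.06 ± 0.17, limma adjusted p = 0.000271), the smallest adjusted p of the family. BZIP111 had 583.8, 952.1 and 807 against 183.7 and 262.3, a 3.49-fold difference (log2 1.80 ± 0.29, limma adjusted p = 0.00366). Its root meristem arrays were more spread out, with array 1 the lowest, yet all lay above the non-meristematic ones.

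Another 3 members were 3.48-fold to 4.44-fold higher in root meristem. BZIP77 had signals of 884.3, 561.8 and 556.5 there against 169.4 and 126.9 (4.44-fold, log2 2.15 ± 0.29, limma adjusted p = 0.00198). BZIP112 had 213.3, 246.1 and 228.7 against 60.4 and 55.5 (3.95-fold, log2 1.98 ± 0.23, limma adjusted p = 0.0012). BZIP16 had 720.1, 475.2 and 516 against 160.3 and 162.4 (3.48-fold, log2 1.80 ± 0.25, limma adjusted p = 0.00222). Root meristem array 1 was the brightest for BZIP77 and BZIP16, and none of the 3 genes overlapped between the groups.

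The last 5 upward members had smaller or less steady differences. BZIP71 read 865.1, 339.5 and 374.5 in root meristem against 176.9 and 169.6, so that array 1 alone was more than 2 times brighter than its companions (2.77-fold, log2 1.47 ± 0.42, limma adjusted p = 0.0312). BZIP62, which lowers abscisic acid sensitivity when overproduced in Arabidopsis, read 616.7, 553.1 and 502.4 against 201.6 and 302.5 (2.25-fold, log2 1.17 ± 0.25, limma adjusted p = 0.0109). BZIP68 read 736.1, 896 and 824.1 against 442.3 and 310 (2.20-fold, log2 1.14 ± 0.23, limma adjusted p = 0.00861). All arrays of both genes were well above background and the groups stood apart. BZIP55 read 609.2, 691.4 and 798.5 against 288.8 and 409.6 (2.02-fold, log2 1.02 ± 0.24, limma adjusted p = 0.0158), just over the minimum size. BZIP130 read 100.8, 74.2 and 91 against 23.3 and 49.1, with non-meristematic array 1 below background (2.60-fold, log2 1.38 ± 0.40, limma adjusted p = 0.0339).

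Each of these 5 calls was lost when a single array was left out. In a fit with 1 non-meristematic array left, that sample is assumed to vary like the root meristem arrays, which alone give the spread. BZIP71 did not pass without non-meristematic array 2 (log2 1.44, adjusted p = 0.0536), and BZIP62 and BZIP68 fell under the minimum size without non-meristematic array 1 (log2 0.88) and array 2 (log2 0.88). BZIP55 was lost without root meristem array 2 or 3 or non-meristematic array 1, with log2 differences of 0.76 to 1.02. BZIP130 was lost without non-meristematic array 1 (log2 0.84), and it was also lost when any root meristem array was dropped (adjusted p = 0.073 to 0.108).

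**Figure D3:**
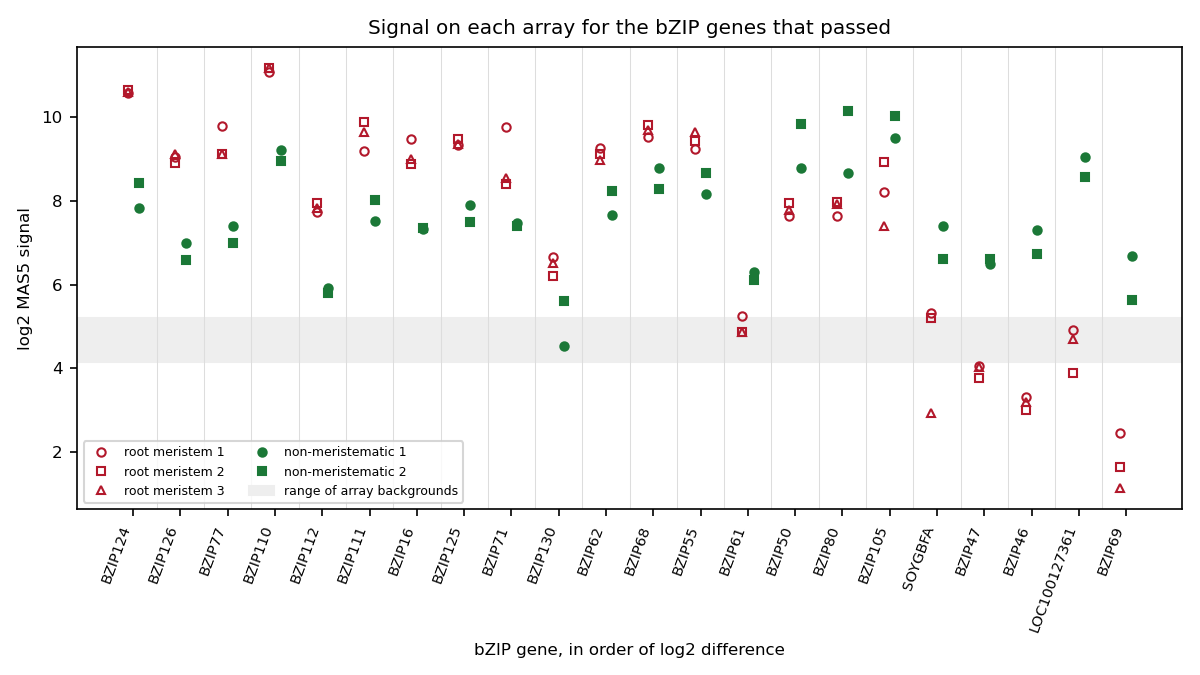
Log2 MAS5 signal (vertical axis) on each of the 5 arrays for the 22 bZIP genes that passed (horizontal axis, from the largest increase to the largest decrease), with the range of the array backgrounds, 17.9 to 37 signal units, as a grey band. For every gene the 3 root meristem points lie on 1 side of the 2 non-meristematic points, and for BZIP47, BZIP46 and BZIP69 all root meristem points lie at or below the band.

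The decreases reached further than the increases, down to signals that could not be told from background. LOC100127361, listed with the synonym bZIP84, had signals of 30.3, 14.7 and 26.2 in root meristem against 528 and 378. It was thus 19.7-fold lower (log2 -4.30 ± 0.40, limma adjusted p = 0.000459), with means of 23.7 ± 8.1 (SD, n = 3) and 453 ± 106 (n = 2). Array 2 of root meristem lay below background and the other root meristem arrays lay close to it, so this fold is uncertain. BZIP46 read 10, 8 and 9.1 against 157.7 and 106.5, BZIP47 read 16.7, 13.6 and 16.4 against 89.5 and 97.4, and BZIP69 read 5.5, 3.1 and 2.2 against 103.2 and 49.8. All root meristem arrays were below background for these 3 genes and both non-meristematic arrays above it, so only a bound can be given, with each dim array raised to its background. Root meristem was lower by at least 6.39-fold for BZIP46, at least 4.60-fold for BZIP47 and at least 3.54-fold for BZIP69. These genes entered the test through the non-meristematic arrays alone, so the filter set their direction. Their limma adjusted p values of 0.00106, 0.00267 and 0.006 belong to the fitted values, not to the bounds.

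SOYGBFA, the soybean G-box binding factor 1 with the synonyms bZIP116 and bZIP118, was also lower in root meristem. It read 39.8, 36.6 and 7.6 there, the last below background, against 168 and 97.7 in non-meristematic tissue (5.75-fold, log2 -2.52 ± 0.77, limma adjusted p = 0.0386). The call rested on few arrays: it did not pass without root meristem array 2 (adjusted p = 0.0582) or without non-meristematic array 1 (adjusted p = 0.101). GBF2, the second G-box binding factor in the family, read 51.4, 37.5 and 27.1 against 71.6 and 49.1, overlapped between the groups and did not pass (log2 -0.67 ± 0.41, limma adjusted p = 0.244).

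The remaining 4 decreases were 2.33-fold to 3.03-fold. BZIP105 read 295.5, 485.6 and 168.6 in root meristem against 731.4 and 1051.7 (log2 -1.60 ± 0.44, limma adjusted p = 0.0281). BZIP80 read 198.1, 252.4 and 243.2 against 406.5 and 1132.7 (log2 -1.56 ± 0.43, limma adjusted p = 0.0269), and BZIP50 read 200.7, 248.9 and 218.7 against 440.7 and 915.2 (log2 -1.52 ± 0.34, limma adjusted p = 0.0125). For BZIP80 and BZIP50 non-meristematic array 2 was 2.79 and 2.08 times as bright as array 1, and both arrays still lay above root meristem. BZIP61 read 37.9, 29 and 29.2 against 79.4 and 69.2 (log2 -1.22 ± 0.34, limma adjusted p = 0.0275). All 4 calls were lost when an array was left out. Without non-meristematic array 2, BZIP50 and BZIP80 fell under the minimum size (log2 -0.99 and -0.82) and BZIP105 missed the adjusted p (0.072). BZIP105 was also lost without root meristem array 1 (adjusted p = 0.0726), BZIP80 without any 1 root meristem array (adjusted p = 0.0657 to 0.0816), and BZIP61 without non-meristematic array 1 or when any root meristem array was dropped (adjusted p = 0.0503 to 0.0853).

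The lower calls depended on the number of non-meristematic arrays. With 1 array of that tissue left, BZIP46, BZIP47 and BZIP69 lay above background on a single array and were no longer tested. BZIP50 and BZIP80 fell under the minimum size without array 2. Counts of calls from such fits are not read as results, because the spread then comes from root meristem alone. They enter only the ranges over all fits that leave out 1 array.

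Several members with a role known from earlier work did not pass, beside BZIP110, BZIP62 and SOYGBFA, which did. The HY5 relative BZIP36 (SOYSTF1A) read 111.4, 76.9 and 46.2 in root meristem against 191.6 and 105.1, with an overlap between the groups (log2 -0.95 ± 0.46, limma adjusted p = 0.143). Its counterpart STF2 (SOYSTF1B) read 44.4, 14.7 and 33.3 against 63.7 and 55.1 (log2 -1.09 ± 0.54, limma adjusted p = 0.154). Neither HY5 relative passed, and STF2 lay below background on root meristem array 2. BZIP1 (AREB1), an abscisic acid response factor, read 123.7, 51.3 and 42.7 against 80.9 and 50, so that root meristem array 1 was the brightest and the others mixed with non-meristematic tissue (log2 0.02 ± 0.52). LOC778136, with the synonym GmTGA24 of the TGA group, read 84.5, 124.7 and 92.1 against 144.1 and 136.4 (log2 -0.50 ± 0.28, limma adjusted p = 0.196). BZIP132, which like BZIP62 has been studied for abscisic acid and salt responses, read 28.5, 29.6 and 23 against 58 and 30 (log2 -0.63 ± 0.45, limma adjusted p = 0.302).

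Another 3 genes passed the adjusted p but not the minimum size. BZIP58 was higher in root meristem with 112.6, 128.9 and 95.8 against 63.3 and 60 (log2 0.86 ± 0.27, limma adjusted p = 0.0439). BZIP114 was lower with 270.1, 251.2 and 271 against 399.5 and 495.6 (log2 -0.75 ± 0.21, limma adjusted p = 0.0297), and BZIP122 was lower with 105.8, 126 and 111.1 against 210.4 and 237.4 (log2 -0.97 ± 0.23, limma adjusted p = 0.0173). Without root meristem array 2 or non-meristematic array 1, BZIP122 passed in full (log2 -1.04 and -1.06). BZIP72, BZIP81 and STF2 had a log2 difference of at least 1 and missed the adjusted p; BZIP72 read 23.4, 25.5 and 19.2 against 5.2 and 19.1, with both non-meristematic values below background.

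Apart from these, the tested genes that did not pass had log2 differences between -0.95 and 0.84. Even examples were BZIP28, with 594.2, 578.5 and 635.9 in root meristem against 530.6 and 541.5 (log2 0.17 ± 0.18), and BZIP117, with 197.8, 174.2 and 158.3 against 182.2 and 165.4 (log2 0.02 ± 0.23). BZIP59 read 2774.1, 2385 and 2491.8 against 4049.7 and 1899.7, so that the non-meristematic arrays lay on either side of root meristem. The 5 genes not tested were BZIP9, BZIP35, BZIP44, BZIP82 and BZIP94. BZIP44, studied together with BZIP62 for abscisic acid responses, read 25.9, 9.9 and 7.8 against 2.6 and 10.5, above background on root meristem array 1 alone.

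The spread between arrays of a tissue differed from gene to gene. The median range over the 62 genes was 0.39 on the log2 scale among the 3 root meristem arrays and 0.51 between the 2 non-meristematic arrays. Root meristem array 1 exceeded both companions by more than 1.5-fold for BZIP77, BZIP71, BZIP1 and BZIP69, while array 2 did so for BZIP105 and array 3 for BZIP81. The non-meristematic arrays were at least 2-fold apart for 12 genes, with array 2 the brighter for 8 of them. BZIP113, for example, read 22.8 on array 1 and 80.9 on array 2, against 72, 79.7 and 78.6 in root meristem, with array 1 below its background of 37. It passed when array 2 was left out (fitted log2 1.75, adjusted p = 0.00564), a fit whose only non-meristematic value lay below background, so that no size can be read from it.

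Several probe sets measured the same gene for 27 of the 67 members, and for 23 of them at least 2 were tested. None of the 23 had probe sets with opposite calls, and for 16 of them the differences had the same sign. All probe sets gave the same call for 18, of which 14 did not pass on any probe set. The others were BZIP110, where 3 probe sets had log2 differences of 1.99 to 2.34, and BZIP111, BZIP71 and BZIP50, where both passed. For 5 genes another probe set did not pass, namely BZIP77 (log2 0.97 ± 0.38), BZIP62 (0.61 ± 0.36), BZIP55 (0.21 ± 0.27), BZIP105 (adjusted p = 0.0575) and BZIP68 (-0.51 ± 0.70). BZIP62 and BZIP105 each had a further probe set that passed in the direction of the main one (log2 1.32 ± 0.21 and -1.65 ± 0.48). The dimmer BZIP68 probe set read 38.4, 19.7 and 24.9 in root meristem against 79.6 and 18.1, close to background. Signs differed, without opposite calls, for BZIP1, BZIP59, BZIP68, BZIP87, BZIP90, BZIP108 and BZIP114. BZIP108 ranged from log2 -1.42 to 0.33 and BZIP90 from -1.98 to 0.54, none of these probe sets passing. BZIP87 had log2 0.29 ± 0.28 on the main one and -0.92 ± 0.23 on the other (limma adjusted p = 0.0211), the latter with 94, 106.7 and 106.6 against 185.6 and 201.3.

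**Figure D4:**
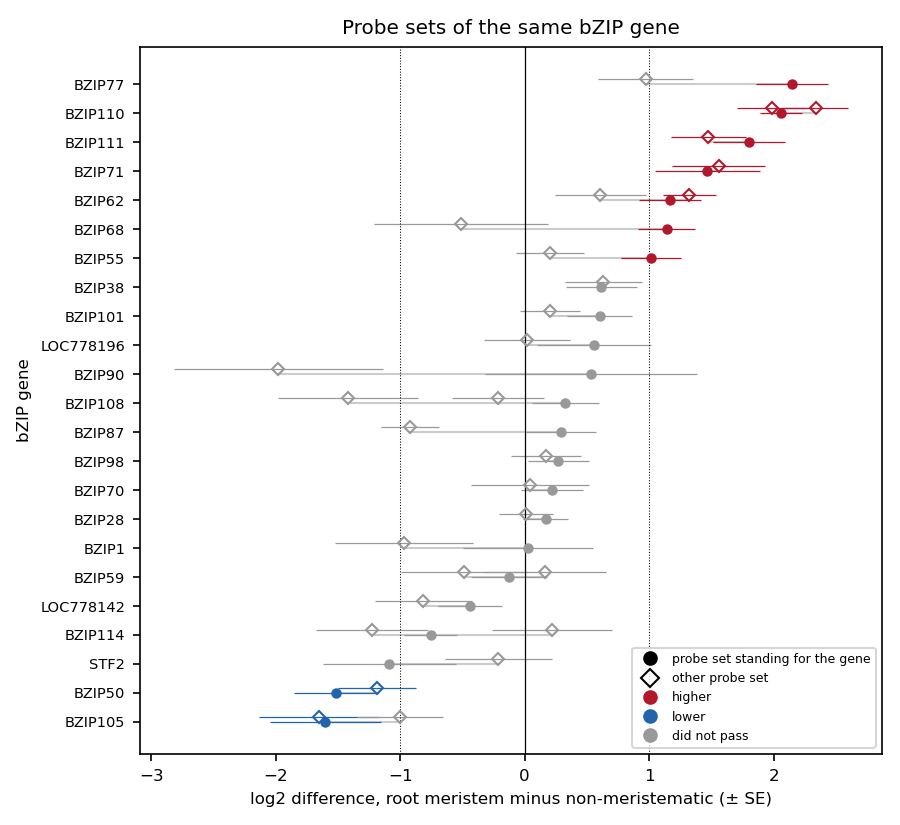
Log2 difference between root meristem and non-meristematic tissue (horizontal axis, bars of 1 SE) for each tested probe set of the 23 bZIP genes that had at least 2 (vertical axis), with filled circles for the probe set that stands for the gene and open diamonds for the others. No gene has 1 probe set that passed upward and another that passed downward.

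Among the members, 14 genes formed 7 pairs whose probe sets carry the same design cluster number of the array, a sign that the sequences behind them were grouped when the array was designed. Members of a pair may therefore share probe signal. The main probe sets of 7 members also carry the array's mark for probes that may match several sequences. They include BZIP62, BZIP53B and BZIP38 in these pairs, and BZIP71 and BZIP105 outside them. With unmarked probe sets alone all 22 calls were kept. BZIP110 and BZIP111 were both higher in root meristem. The pair of BZIP61 and BZIP62 went opposite ways, with BZIP61 lower (79.4 and 69.2 in non-meristematic tissue against 29 to 37.9 in root meristem) and BZIP62 higher (201.6 and 302.5 against 502.4 to 616.7). BZIP61 lay close to background in root meristem, and the calls of both genes were lost when certain arrays were left out. In the pair of BZIP130 and LOC778142 (bZIP129, bZIP131), BZIP130 passed upward and LOC778142 read 139.4, 134.2 and 107.1 in root meristem against 188.5 and 155.3, with no call (log2 -0.44 ± 0.26, limma adjusted p = 0.216). The other 4 pairs had no member that passed. Among them LOC780550 (bZIP53A) read 3368, 3141.9 and 2574.3 against 2774.4 and 1757.6 (log2 0.45 ± 0.23), and BZIP53B read 2671.9, 3084.6 and 2296.8 against 2282.9 and 1804.8 (log2 0.39 ± 0.19).

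**Figure D5:**
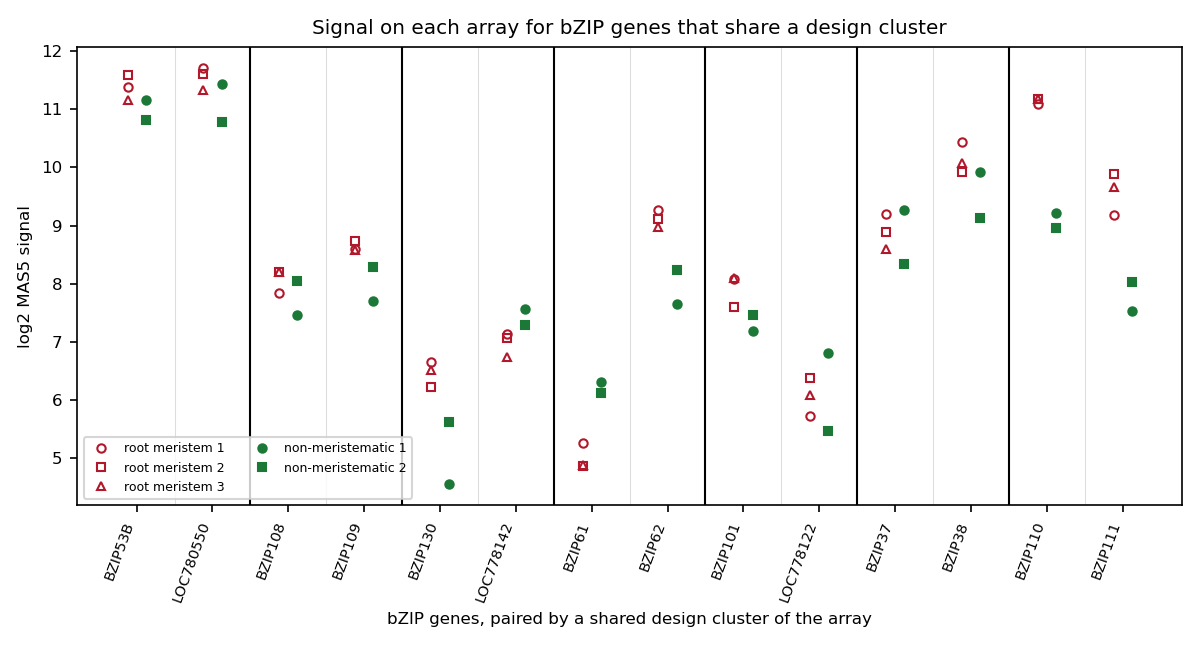
Log2 MAS5 signal (vertical axis) on each of the 5 arrays for the 14 bZIP genes in 7 pairs that share a design cluster number (horizontal axis, pairs separated by black lines). Root meristem lies above non-meristematic tissue for both BZIP110 and BZIP111, and on opposite sides for BZIP61 and BZIP62.

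Genes that act with bZIP factors were read from the same fit, by lists of symbols. Kinases of the SnRK2 type, which switch on abscisic acid bZIP factors, were represented by 4 SPK genes. Of these 1 was higher, 2 were lower and 1 did not pass, beside 18.6% of all genes higher and 21% lower. SPK-3 read 1724.1, 1731.7 and 1808.7 in root meristem against 413 and 438 (4.12-fold, log2 2.04 ± 0.16, limma adjusted p = 0.000253). SPK-1 read 37.5, 48.4 and 53.7 against 352.6 and 407 (8.23-fold lower, limma adjusted p = 0.000426), and SPK-2 read 38.7, 24.8 and 29 against 171.4 and 200.5 (6.12-fold lower, limma adjusted p = 0.00147). These 3 kinase genes did not overlap between the groups, whereas SPK-4 did (log2 -0.33 ± 0.32), and the list's median log2 difference was -1.47 beside 0.20 over all genes.

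Cryptochromes are blue-light receptors upstream of HY5-type bZIP factors. The list of light and salicylic acid partners matched 4 cryptochrome genes, the phytochrome gene PHYA and COP10, which was caught by the prefix COP1, and no salicylic acid gene. Of these 6 genes 3, all cryptochromes, were lower in root meristem, none was higher and 3 did not pass. Over all genes 21% were lower and 18.6% higher. The median over this list was -2.09 on the log2 scale, beside 0.20 over all genes. LOC100797839 (GmCRY1b1) read 4.9, 4.9 and 0.9 in root meristem, all below background, against 377.1 and 368.4, a decrease of at least 18.4-fold. Its limma adjusted p of 0.00131 belongs to the fitted values, not to the bound. LOC100786551 (GmCRY1c1) was 6.81-fold lower. CRY2B read 31.1, 20.6 and 24 against 126.8 and 162.1 (5.77-fold lower). Its root meristem signals lay near or below background, so this fold is uncertain. COP10 was at log2 -0.84 ± 0.22, under the minimum size.

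Chaperones and disulfide isomerases of the endoplasmic reticulum are known targets of the bZIP factors that answer misfolded protein. Of 8 such genes 6 were higher in root meristem (75%, beside 18.6% of all genes) and 2 did not pass. The median over this list was 1.31 on the log2 scale, beside 0.20 over all genes. The chaperone gene BIP4 read 4089.4, 4220.2 and 5599.9 against 1122.4 and 1445.4 (3.60-fold, limma adjusted p = 0.000875), and BIP2 read 523.7, 483.5 and 946.4 against 83.7 and 118.7 (6.23-fold, limma adjusted p = 0.00194). Neither overlapped between the groups.

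Seed maturation genes, many of which carry abscisic acid response sites in seeds, were higher for 19 of 31 tested (61.3%) and lower for none. Over all genes 18.6% were higher and 21% lower. The prefix PM also caught PMM, a gene outside the numbered PM series, which did not pass and is counted in the list. The list's median log2 difference was 3.01 as fitted, beside 0.20 over all genes. With the 14 genes below background in a whole tissue at their bound it was 2.01. The list's summed signal was 34227, 22931 and 15603 on root meristem arrays 1, 2 and 3, and 7227 and 6009 in non-meristematic tissue. Root meristem array 1 was thus the brightest for this list, as it was for BZIP77, BZIP71 and BZIP1. Among root meristem arrays it was also the brightest for the summed MYB, WRKY, NAC, and ERF and DREB genes. The sums on arrays 1 and 3 were 18818 and 14357 for MYB, 9677 and 8318 for WRKY, and 16599 and 6805 for NAC. For ERF and DREB they were 8398.5 and 6072.7. A link between the order in these lists and in the bZIP members was not tested. The endoplasmic reticulum and abscisic acid lists were brightest on root meristem array 3. Without root meristem array 1 BZIP77 and BZIP71 still passed. PM30 was at least 131-fold higher and PM16 at least 40.4-fold higher in root meristem, both below background in non-meristematic tissue. Their limma adjusted p values of 3.48e-05 and 0.000483 belong to the fitted values, not to the bounds. The asparagine synthetase gene AS2, the only member of its list, read 1667.7, 1091.7 and 510.2 against 2175.5 and 917.3 and did not pass (log2 -0.53 ± 0.55). The list of further bZIP genes under other names matched only GPA2 through its synonym SGA2, a G protein subunit and no bZIP gene.

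Other transcription factor families on the array are given for scale, with no test of a difference between families. Beside 18.6% of all genes higher and 21% lower, the families read as follows. Of 54 tested MYB genes 6 were higher (11.1%) and 10 lower (18.5%). Of 46 WRKY genes 6 were higher and 6 lower (13.0% each), and of 19 NAC genes 5 were higher (26.3%) and 3 lower (15.8%). Of 13 ERF and DREB genes 1 was higher (7.69%) and none was lower.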

How the data were processed

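Per the labels, each array used 6 µg of total RNA. The deposited intensities are MAS5 signals on a linear scale, 1 per probe set, per the submitters' processing notes, whose software version and scaling target the sources used here do not give. A floor of 0.1 was set, followed by log2 with no further scaling. Testing required a signal above the array's 25th percentile on at least 2 arrays. limma 3.58.1 in R 4.3.3 (lmFit, eBayes with intensity trend) compared 3 with 2 arrays over 30941 of 37593 probe sets, with Benjamini-Hochberg adjustment over all of them. The number of arrays limits the precision. Names came from the platform annotation and, through Entrez numbers, from RefSeq genes of Glycine_max_v4.0, which held 64 of the 67 bZIP genes; positions and sequences were not used here. Of all probe sets 8677 had 1 gene, 370 several and 28546 were not listed. Every bZIP gene is accounted for, all that passed are given by array, and further lists name at most 4 genes, from those with the smallest adjusted p. Pairs by protein identity, part of the planned naming, were not made. The members and lists were chosen with earlier results of these data known. The procedure was tested on simulated data with the same arrays and 200 of 30286 probe sets changed. It recovered 15% of log2 changes of 1.5 and 59% of those of 3, with 2 false calls. In the data 32.5% of tested probe sets were called, a far larger share than was changed in the simulation. The adjusted p depends on that share, so these rates do not carry over to this comparison. The alternatives were other scalings, filters, floors, variance models and probe sets, a replicate block and leaving out each array.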

Additional observations from a re-analysis of the deposited data

How the results depend on the processing

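Across 17 alternatives none of the 22 bZIP calls changed direction, and 9 held under every alternative in which they were tested: BZIP124, BZIP126, BZIP77, BZIP110, BZIP112, BZIP46, BZIP47, BZIP69 and LOC100127361. Of these, BZIP46, BZIP47 and BZIP69 had 15 alternatives each. The filter removed them from the fits without a non-meristematic array, so those fits could not test their calls. Testing against a log2 difference of 1 left 5 bZIP genes higher and 4 lower, while the count of all probe sets higher was 1161 and of all probe sets lower 2871, because that test asks for more. Leaving out 1 array gave 11 to 13 bZIP genes higher and 3 to 7 lower, with all probe sets higher at 3428 to 5364 and all probe sets lower at 4192 to 4942. The most higher and the fewest lower calls in these ranges came from fits with 1 non-meristematic array left. Their spread comes from root meristem alone, and they did not test BZIP46, BZIP47 and BZIP69. These ends are therefore no result. Leaving out 1 root meristem array gave 11 or 12 bZIP genes higher and 6 or 7 lower. Over all probe sets the median log2 difference went from 0.07 to 0.30 (quantile normalization) and 0.43 (median centring) by scaling. The counts were 5719 higher and 4717 lower, and 7668 higher and 4689 lower, against 4452 and 5608. The bZIP genes then split 14 higher and 8 lower, and 14 and 7; BZIP61 was lost under both and BZIP80 under median centring, while BZIP58 passed. Without an intensity trend BZIP71, SOYGBFA, BZIP80 and BZIP105 were lost. The cause was not tested. The replicate block gave 11 bZIP genes higher and 7 lower, with BZIP130, SOYGBFA, BZIP55 and BZIP61 lost. Same-numbered arrays of the 2 tissues deviated together with r = 0.099 for number 1 and -0.089 for number 2 over probe sets. With 2 non-meristematic arrays the deviations from their mean mirror each other. Root meristem array 2 thus had r = 0.089 with non-meristematic array 1 and the same value with opposite sign with array 2. The check cannot decide whether the numbers pair samples, which the labels do not state, and the main fit used no block. Signals near background limit BZIP46, BZIP47, BZIP69, SOYGBFA, LOC100127361, BZIP130 and BZIP61. The BZIP61 call was lost under 9 of the 17 alternatives.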
